A study of Mus musculus with 15 samples.

Results

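The effect of losing Suz12 on transcripts of mouse embryonic stem cells was read from a table of 38355 genes, of which the 18498 with a value for Suz12-KO against E14-WT are described here. Suz12-KO cells carry the genotype Suz12[-/-], and E14-WT stands for wild-type E14TG2a cells, with 3 RNA-seq libraries each, 6 of the 15 in the series. Cells of both groups grew on gelatin in 2i medium with LIF, 1 µM of the MEK inhibitor PD0325901 and 3 µM of the GSK3 inhibitor CH99021. The other groups used for side-by-side values are Ezh2-KO (Ezh2[-/-]), its wild type Ezh2-WT (Ezh2[fl/fl]) and Ring1A+B-DKO (Ring1A[-/-];Ring1B[-/-]), all in the same medium. How the Suz12 allele was made, the number of clones and the parental line of Suz12-KO were not stated in the labels, so an effect of the genotype and a difference between lines cannot be told apart.

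SUZ12 belongs to the core of Polycomb repressive complex 2 (PRC2), in which EZH2 or EZH1 methylates lysine 27 of histone H3 and EED binds the finished mark. SUZ12 holds the complex together and is needed for its stability. In embryonic stem cells PRC2 is known for occupying CpG islands of silent developmental genes, and such cells can be grown without it.

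Every fold change and call in the following is that of the authors' deposited table. The table gives 1 log2 fold change and 1 call, true or false, per gene and comparison, with no value per library, no error and no p-value. The spread between replicates, the depth of each library and the expression level of a gene are therefore unknown, and no test could be added. The words rose and fell are kept for genes that the authors called in the comparison named. For uncalled genes the value alone is given. Values of the other comparisons are often given alone too, whether called there or not. Values are stated as Suz12-KO over E14-WT, and the deposited column was turned for this. All 1064 genes with a value here but no read in E14-WT were negative as deposited, and a gene seen in the knockout alone can only be higher there. After turning, the largest of these fitted values was 0.84, so a fold printed below can be smaller than the ratio of reads.

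Few transcripts were called. The authors' deposited table calls 16 genes higher and 21 lower, together 37 of 18498 or 0.200% (0.0865% up and 0.114% down). The median log2 fold change of all genes was -0.03, with quartiles of -0.18 and 0.14, and 68.0% of genes lay within 0.25 of 0. The first and last percentiles lay at -0.87 and 0.71. By size alone, 40 genes stood at 1 or above and 112 at -1 or below, which is 0.822% of the genes with a value. All 37 called genes are among these 152, and the other 115 (24 higher, 91 lower) were not called. The smallest called change was that of Guk1 at 1.01.

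**Figure D1:**
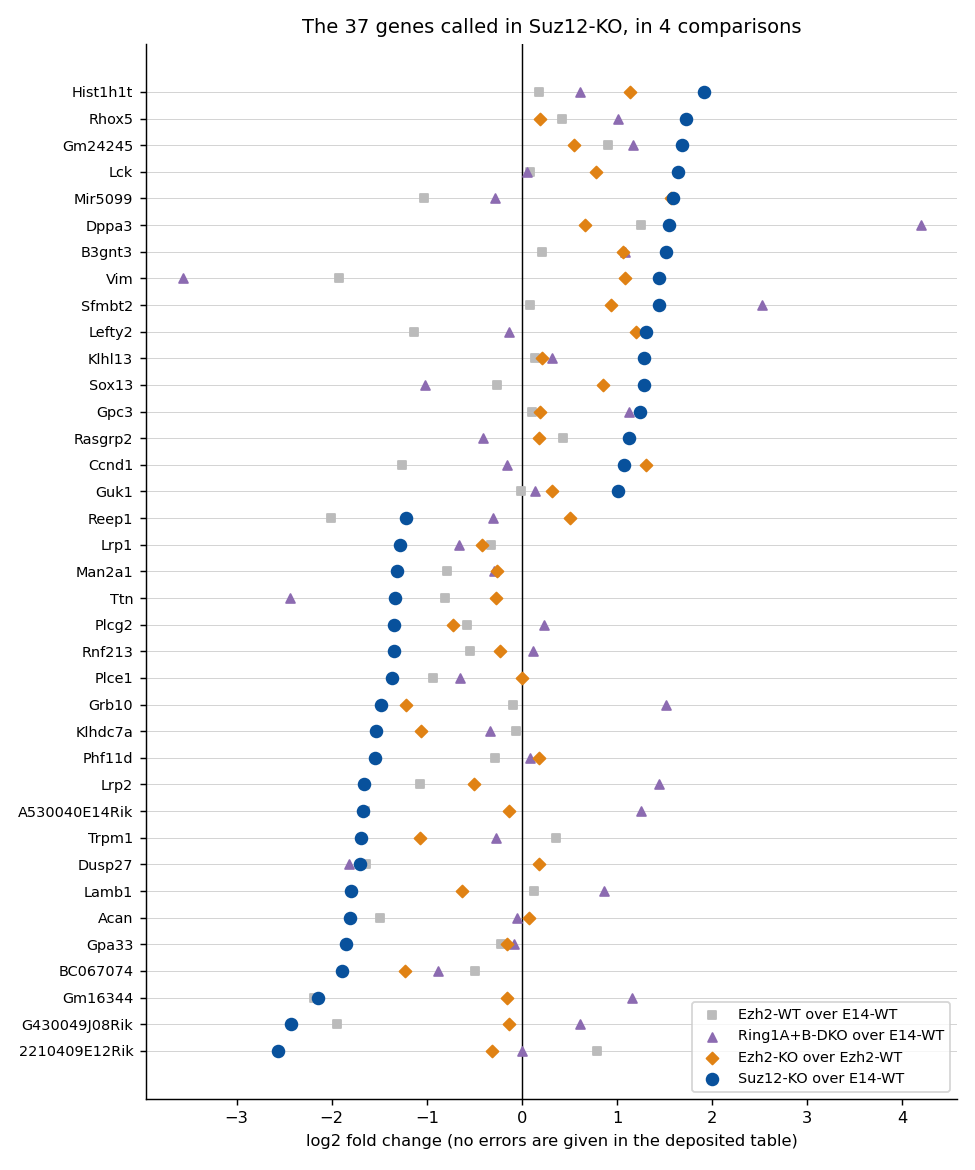
Log2 fold change (x axis) of each of the 37 called genes (rows, ordered by their value in Suz12-KO over E14-WT, blue circles) in the 4 comparisons of the table. The 16 increases run from 1.01 to 1.91 and the 21 decreases from -1.22 to -2.56. All 16 increases also lie above 0 in Ezh2-KO over Ezh2-WT (orange diamonds), which uses none of the same libraries.

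The promoters of 4 called genes show the range of CpG content among them, which is of interest because PRC2 is known to bind CpG islands. The sequences are those of RefSeq on GRCm38.p6, from 250 bases before the start of transcription to 50 after it, 5′ to 3′, with each CpG dinucleotide in capitals. They belong to the largest increase with an entry, Hist1h1t (chr13:23695561-23695860, plus strand, entered as H1f6), the largest decrease with an entry, Gpa33 (chr1:166129971-166130270, plus strand), and the called genes of highest and lowest CpG ratio, Sox13 (chr1:133424163-133424462, minus strand) and A530040E14Rik (chr1:85105843-85106142, plus strand).
Hist1h1t: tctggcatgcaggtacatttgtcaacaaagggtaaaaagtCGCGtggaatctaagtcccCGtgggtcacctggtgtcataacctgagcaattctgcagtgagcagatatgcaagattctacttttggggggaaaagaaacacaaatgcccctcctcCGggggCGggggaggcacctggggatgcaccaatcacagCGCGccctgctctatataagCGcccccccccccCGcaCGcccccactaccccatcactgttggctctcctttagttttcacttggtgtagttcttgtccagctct
Gpa33: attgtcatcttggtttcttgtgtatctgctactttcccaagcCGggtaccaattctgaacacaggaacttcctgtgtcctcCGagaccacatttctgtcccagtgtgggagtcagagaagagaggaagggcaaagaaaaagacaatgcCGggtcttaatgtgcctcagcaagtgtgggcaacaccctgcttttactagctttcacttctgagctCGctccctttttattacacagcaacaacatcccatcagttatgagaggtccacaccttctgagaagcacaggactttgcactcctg
Sox13: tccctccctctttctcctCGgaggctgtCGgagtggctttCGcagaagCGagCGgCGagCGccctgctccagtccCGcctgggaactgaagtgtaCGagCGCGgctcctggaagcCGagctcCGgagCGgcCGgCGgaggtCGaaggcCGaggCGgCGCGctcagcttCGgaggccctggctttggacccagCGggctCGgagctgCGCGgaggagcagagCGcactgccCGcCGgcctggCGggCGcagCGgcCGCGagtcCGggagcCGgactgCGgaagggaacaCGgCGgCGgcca
A530040E14Rik: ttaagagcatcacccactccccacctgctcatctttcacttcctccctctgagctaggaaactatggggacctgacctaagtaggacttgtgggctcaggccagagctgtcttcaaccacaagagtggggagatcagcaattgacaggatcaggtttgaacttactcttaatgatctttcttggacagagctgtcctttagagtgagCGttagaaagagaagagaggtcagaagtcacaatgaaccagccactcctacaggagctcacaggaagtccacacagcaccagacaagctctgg

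The promoter of Sox13 held 40 CpG dinucleotides, a ratio of observed to expected CpG of 1.00. That of Hist1h1t held 10 (ratio 0.45), that of Gpa33 held 4 (0.234) and that of A530040E14Rik held 1 (0.0542). Called genes were mixed in this respect. A promoter was taken as CpG-rich with a ratio of at least 0.6 and a GC content of at least 50%, and 66.5% of the 10893 genes with a value and a promoter entry met both. Among called genes it was 4 of 10 increases and 5 of 14 decreases. Rasgrp2, Gpc3 and Guk1 were the other CpG-rich increases, with ratios of 0.906, 0.919 and 0.887. Lck, Sfmbt2 and Vim stood lower, at 0.289, 0.392 and 0.421. Among the decreases Man2a1, Acan and Plcg2 had ratios of 0.829, 0.795 and 0.788, and Dusp27 and Trpm1 of 0.162 and 0.114. The larger groups of genes at 0.5 or above and at -0.5 or below were closer to the whole, with 70.6% of 408 and 62.0% of 661 CpG-rich. At least 1 CpG, the same letters on both strands, was present in 99.4% of all these promoters, and its presence says nothing about binding of PRC2 there.

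**Figure D2:**
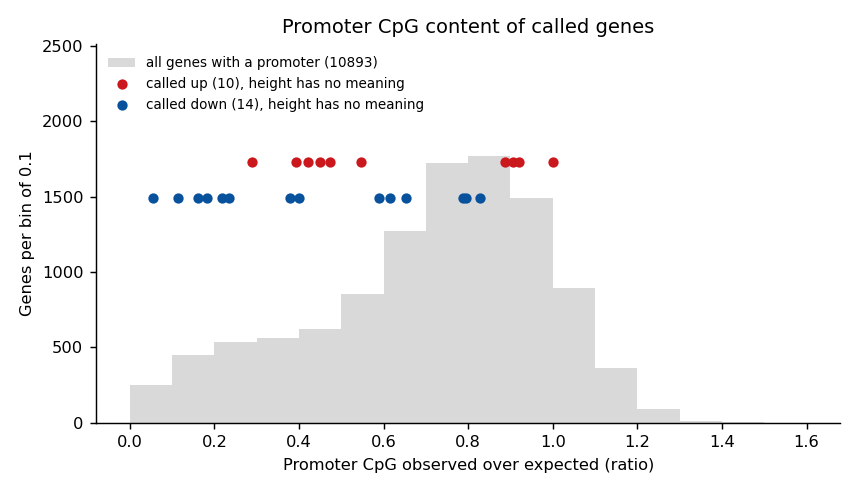
Ratio of observed to expected CpG in the 300 bases around the start (x axis) for 10893 genes (grey bars, genes per bin of 0.1). Red and blue points mark the 10 called increases and 14 called decreases with a promoter entry, and they spread from 0.289 to 1.00 and from 0.0542 to 0.829. Their height in the plot has no meaning.

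Suz12 itself (ENSMUSG00000017548, chromosome 11, 79993106 to 80034123 in GRCm38, plus strand, protein-coding) stood at -1.04 in the authors' deposited table. As a fitted ratio this is 0.486 times the level in E14-WT, and the ratio of reads is unknown. Suz12 was not called, and it ranked 96 from the lowest among the 18498. One value covers all exons of a gene, including any that remain in the allele, and Suz12 overlaps the gene model Gm26563. Of the other 28 genes whose lower coordinate lies within 1000 kb of its own, none reached an absolute value of 1. Their median was -0.13 and 23 of them lay below 0, beside -0.03 and 53.6% over all genes. Some of them share their value with other genes, such as Gm26563 at -0.04, and a local shift was not tested. The largest were Adap2 at -0.67, a GTPase-activating protein for ARF6, and Myo1d at -0.39, an unconventional myosin.

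**Figure D3:**
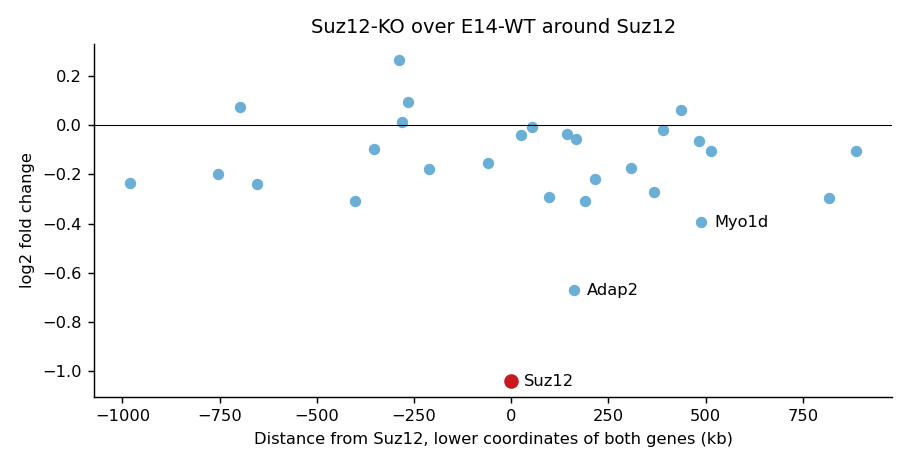
Log2 fold change in Suz12-KO over E14-WT (y axis) of Suz12 (red) and the 28 other genes within 1000 kb of it (blue), against the distance between the lower coordinates of both genes (x axis, kb). Suz12 stands at -1.04, and the next lowest gene, Adap2, at -0.67.

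The remaining subunits of PRC2 had small values in the authors' deposited table. With 0.200% of all genes called, a count of 0 in lists as short as those below carries little. Of the 6 core genes 0 were called, and the other 5 were Ezh1 at -0.37, Eed at -0.21, Ezh2 at 0.19, and the histone-binding subunits Rbbp7 at -0.18 and Rbbp4 at 0.01. Accessory subunits, which set where the complex binds, had 0 calls among 8. Mtf2, a Polycomb-like DNA-binding subunit, stood at -0.44, Aebp2 at -0.36, Phf19 at -0.28, Epop at 0.23, Lcorl at 0.42, Lcor at 0.06 and Jarid2 and Phf1 both at -0.02. The 24 subunits of PRC1, the complex that ubiquitinates histone H2A, had 0 calls and a median of -0.15. Ring1 stood at 0.63, Phc1 at -0.60 and Bcor at -0.48. Among 15 trithorax proteins and demethylases of the PRC2 mark, also with 0 calls, Kdm6b, which removes it, stood at -0.54. In DNA methylation the de novo methyltransferase Dnmt3a stood at -1.01 and the oxidase Tet3 at -0.66, with 0 calls among 15 and a median of -0.17. Dnmt3a stood at -1.27 in Ezh2-WT against the same E14-WT libraries.

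The increases included Hist1h1t, Rhox5 and Dppa3, single genes of germ cells or the early embryo, while the germline and 2-cell-like lists had medians below 0. Hist1h1t (ENSMUSG00000036211, chromosome 13), the linker histone of the testis, rose by 1.91 on the log2 scale, or 3.76-fold, in the authors' deposited table. It stood at 1.14 in Ezh2-KO over Ezh2-WT and at 0.61 in Ring1A+B-DKO. The other testis histone genes with a value were Hist3h2ba at 0.83, Hist1h2ba at 0.58 and Hist1h2aa at -0.05, none of them called. Rhox5 (chromosome X, 37804842 to 37808876), a homeobox gene of the reproductive tract and placenta, rose by 1.72. None of the other 6 members of its cluster with a value was called, and Rhox6 stood at 0.41, Rhox9 at 0.25 and Rhox13 at -0.25. In Ezh2-KO Rhox5 stood at 0.19, and in Ring1A+B-DKO it rose by 1.01. Dppa3, a maternal factor that guards DNA methylation in the zygote, rose by 1.54 and has a near-identical pseudogene. In Ring1A+B-DKO, where 3.00% of genes were called, Dppa3 rose by 4.19. Of 32 germline and meiosis genes 0 were called, and their median was -0.12 (-0.23 over unshared values), with Dazl at -0.73, Mael at -0.72 and Stra8 at -0.71. Of 18 genes of the 2-cell-like state, an early embryonic one, 0 were called, at a median of -0.65. At the rate of 0.200% over all genes, a count of 0 in either list carries little.

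Of the increases in signalling and cell cycle genes, that of Ccnd1 was also called in Ezh2-KO. Ccnd1 (chromosome 7, 144929931 to 144939925), the cyclin D1 gene that drives entry into the cell cycle, rose by 1.07 in the authors' deposited table and by 1.31 in Ezh2-KO, where 0.177% of 18097 genes were called. The latter value is over Ezh2-WT, in which Ccnd1 fell by 1.27 against E14-WT. Lefty2 (chromosome 1, 180893108 onward), a secreted antagonist of Nodal, rose by 1.31. It stood at 1.20 in Ezh2-KO over Ezh2-WT and at -1.13 in Ezh2-WT over E14-WT. Its close copy Lefty1 stood at -0.53 and Nodal at 0.07, so values split within this feedback loop. Lck, a Src family kinase of T cells, rose by 1.65, while Cd3e, another T cell gene, stood at -1.15. Rasgrp2, an activator of the GTPase Rap1, rose by 1.13. Gpc3, an X-linked glypican of the cell surface, rose by 1.24, and Klhl13, an X-linked adaptor of the CUL3 ubiquitin ligase, by 1.29. Sox13, a transcription factor of the SoxD group, rose by 1.29 and Guk1, the guanylate kinase, by 1.01.

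Other increases belonged to the cytoskeleton, glycan synthesis and imprinting. Vim (chromosome 2, 13573927 to 13582826), the intermediate filament protein vimentin, rose by 1.44 in the authors' deposited table, with 1.09 in Ezh2-KO. Against the same E14-WT libraries it stood at -1.92 in Ezh2-WT and -3.57 in Ring1A+B-DKO. B3gnt3, a glycosyltransferase of mucin-type chains, rose by 1.51 and stood at 1.06 in Ezh2-KO. Sfmbt2 (chromosome 2, 10370510 onward), an imprinted gene of the Polycomb group, rose by 1.44, or 2.71-fold, and stood at 0.94 in Ezh2-KO and 2.52 in Ring1A+B-DKO. A long run of microRNA genes lies within Sfmbt2, so reads can be divided between them. The last increases were the small RNA genes Mir5099 (1.59) and Gm24245 (1.68), whose values are uncertain, since small RNA was removed in the purification per the labels' protocols. Mir5099 rose by 1.57 in Ezh2-KO as well, and fell by 1.03 in Ezh2-WT over E14-WT.

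Imprinted genes held 1 increase and 1 decrease among 38 in the authors' deposited table, against 16 and 21 of all 18498. Grb10 (chromosome 11, 11930508 to 12038683), an adaptor that restrains insulin signalling and growth, fell by 1.48, to 0.358 times the level in E14-WT. It fell in Ezh2-KO as well, by 1.22, while it stood at -0.10 in Ezh2-WT and 1.52 in Ring1A+B-DKO. The list had a median of -0.07, with Zrsr1 at -0.85 and Nnat at 0.77. Sfmbt2, Gab1, Slc38a4, Jade1 and Smoc1 form the group whose imprint is known to rest on methylation of histone H3 rather than of DNA in the early mouse embryo. In it Sfmbt2 rose and the other 4 ranged from -0.30 for Jade1 to 0.26 for Smoc1.

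Matrix and basement membrane genes lay mostly below 0. In the values of the authors' deposited table, 2 of 31 members fell and 0 rose, beside 0.114% and 0.0865% of all genes. Of the 31 members 27 lay below 0, at a median of -0.54, beside 53.6% and -0.03 over all genes. Lamb1 (chromosome 12, 31265234 onward), the laminin beta 1 chain found in nearly every basement membrane, fell by 1.80, to 0.288 times the level in E14-WT. Acan, the cartilage proteoglycan aggrecan, fell by 1.81. Frem2, an anchoring protein of the epidermal basement membrane, stood at -1.34 and the collagen IV chain gene Col4a1 at -1.12. Col4a2 at -0.99 and the laminin chain gene Lama5 at -0.93, both named after their values were seen, followed. In Ezh2-KO the median of this list was -0.24 over 29 genes, of which 18 lay below 0. Frem2 stood there at -1.39, Col4a2 at -0.95, Lamb1 at -0.63, Col4a1 at -0.28, Lama5 at -0.19 and Acan at 0.07. In the comparisons that share the E14-WT libraries the median of the list was 0.02 in Ezh2-WT and 0.48 in Ring1A+B-DKO. Col4a1 stood at -1.26 in Ezh2-WT. Acan was called lower in Ezh2-WT too, at -1.49, where 0.607% of genes were called.

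Markers of 2 other cell types that make much matrix were read beside these values. Of 8 markers of feeder fibroblasts 6, Col1a2, Col3a1, Postn, Lum, Dcn and Twist2, had no value in the authors' deposited table, which means no read in either group. Thy1 and Col1a1 stood at -0.12 and -0.17. A wider list of fibroblast genes had 0 calls among the 8 of 16 with a value. Of these 7 lay below 0, with a median of -0.34, or -0.51 over values not shared with another gene, and Col5a1, a fibrillar collagen chain gene, stood at -1.03. Of 6 markers of primitive endoderm, the embryonic lineage that secretes basement membrane, Gata6 had no read in either group. Gata4, Pdgfra and Dab2 stood at -0.02, -0.16 and 0.15. Sox17 stood at -0.42 and Sox7 at 0.84, and 0 of them were called. The endoderm list had 1 increase, Rhox5, and 2 decreases, Lamb1 and Lrp2, among 20, beside 0.0865% and 0.114% of all genes. Its median was -0.17. As 11 of the 20 share their value with other genes, the median over unshared values was -0.82. The part of other cell types in the matrix values was not tested, and in bulk RNA fewer cells of a type and less RNA per cell cannot be told apart.

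Endocytic receptors and surface proteins made up further decreases. Lrp2 (megalin), a receptor of visceral endoderm and kidney, fell by 1.66 in the authors' deposited table, and the related receptor Lrp1 by 1.29. Lrp2 stood at -1.07 in Ezh2-WT and rose in Ring1A+B-DKO, by 1.45, where 3.00% of genes were called. Gpa33 (chromosome 1, 166130238 onward), an immunoglobulin-type antigen of intestinal epithelium, fell by 1.85, and Trpm1, a cation channel of melanocytes and retina, by 1.69. Trpm1 stood at -1.07 in Ezh2-KO. Mitf, a regulator of melanocyte genes, stood at -0.78.

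Intracellular proteins accounted for most of the other decreases. The phospholipase genes Plce1 and Plcg2 fell by 1.36 and 1.34 in the authors' deposited table, the Golgi mannosidase gene Man2a1 by 1.31, and Reep1, which shapes the endoplasmic reticulum, by 1.22. Reep1 fell by 2.01 in Ezh2-WT over the same E14-WT libraries. Rnf213, a giant ubiquitin ligase, fell by 1.34, as did Ttn, the muscle spring titin. Dusp27, a phosphatase-like protein of muscle, fell by 1.71, close to its values of -1.64 in Ezh2-WT and -1.82 in Ring1A+B-DKO against the same wild type. Phf11d fell by 1.55 and has a close copy, Phf11a. Klhdc7a, a kelch domain gene, fell by 1.54 and stood at -1.06 in Ezh2-KO. BC067074 fell by 1.89 and stood at -1.23 there. The 3 largest decreases of all were gene models that are not annotated as coding, namely 2210409E12Rik at -2.56, G430049J08Rik at -2.42 and Gm16344 at -2.14. The antisense model A530040E14Rik fell by 1.67. All 4 have near-identical copies, and 11 of the 37 called genes share such a stretch with another gene, which for Ccnd1 is its overlapping neighbour LTO1. A further source of doubt is that 14 called genes overlap a gene on the other strand, and no source used here says whether counting used strand. The shares of all genes with such a copy or overlap were not computed, so called genes may be no different. G430049J08Rik, Gm16344 and A530040E14Rik stood at -1.95, -2.19 and -1.65 in Ezh2-WT.

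Antigen presentation genes included low values beside the decrease of Phf11d. B2m, the light chain that all class I molecules need, stood at -1.25 in the authors' deposited table, H2-K1 at -0.94, and, named after their values were seen, the peptide transporter Tap1 at -0.57 and H2-D1 at -0.49. None of these was called. The interferon and antigen presentation list had 1 decrease and 0 increases among 19, beside 0.114% and 0.0865% of all genes. Its median was -0.10, or -0.27 over unshared values. In Ezh2-KO the same genes stood at -0.33, -0.84, -0.67 and -1.02. In Suz12-KO Bst2 stood at 0.60, and H2-K1 and H2-D1 share near-identical stretches. Of the 19 genes of the list 12 lay below 0 and 7 above. Tap2, Tapbp, H2-T23 and Psmb9, also named after their values were seen, stood at 0.07, 0.01, -0.06 and -0.10.

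Markers of embryonic stem cells had values close to 0. All 8 had reads and a value in the authors' deposited table, between -0.45 for Tfcp2l1 and 0.15 for Pou5f1, and 0 were called. Nanog stood at -0.29, Sox2 at 0.06 and Esrrb at 0.09. The naive list had 1 increase among 18, Dppa3, with a median of -0.185, where 0.200% of all genes were called. Gbx2 stood at -1.22, Klf4 at 0.70 and Prdm14 at 0.65. Among 13 general pluripotency genes 0 were called, with Utf1, a chromatin protein of stem cells, at 1.11. Of 14 formative and primed genes 0 were called, and Otx2, a factor of the exit from naive pluripotency, stood at 1.21. Otx2 stood at 0.66 in Ezh2-KO and 1.08 in Ezh2-WT.

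None of the developmental genes for which PRC2 is best known was called. Hox genes had 0 calls in the authors' deposited table, and 23 of the 38 in the table had no read in either Suz12-KO or E14-WT. The 15 with a value had a median of -0.11 and ran from -0.62 for Hoxd9 to 0.33. Of 113 further developmental transcription factors 38 had no read in either group, and the 75 with a value had 0 calls and a median of -0.06. They ran from -1.22 for Gbx2 to 1.21 for Otx2, with En2 at -1.01 and Nkx6-2 at 0.89. Of the 75 genes 55 share their value with other genes, and the median over unshared values was -0.12. With 0.200% of genes called, lists of these sizes hold less than 1 call at the rate of all genes, so the count of 0 carries little. Of 16 neural genes 0 were called, at a median of 0.24 (0.42 over unshared values), with Tubb3 at 0.99, Olig1 at 0.78 and Nefl at 0.61. Of the 16 genes 6 lay below 0, among them the neural stem cell factor gene Sox1 at -0.44, while Pax6 had no read in either group. Mesoderm (0 calls among 15), trophoblast (0 among 15) and Notch (0 among 13) lists had medians of -0.06, -0.06 and -0.20. The first 2 medians equal -0.0571, a value that 718 genes share. Of the 15 mesoderm genes 13 had shared values, and the median over unshared values was 0.38, which turns the direction. For the Hox list it was -0.28.

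**Figure D4:**
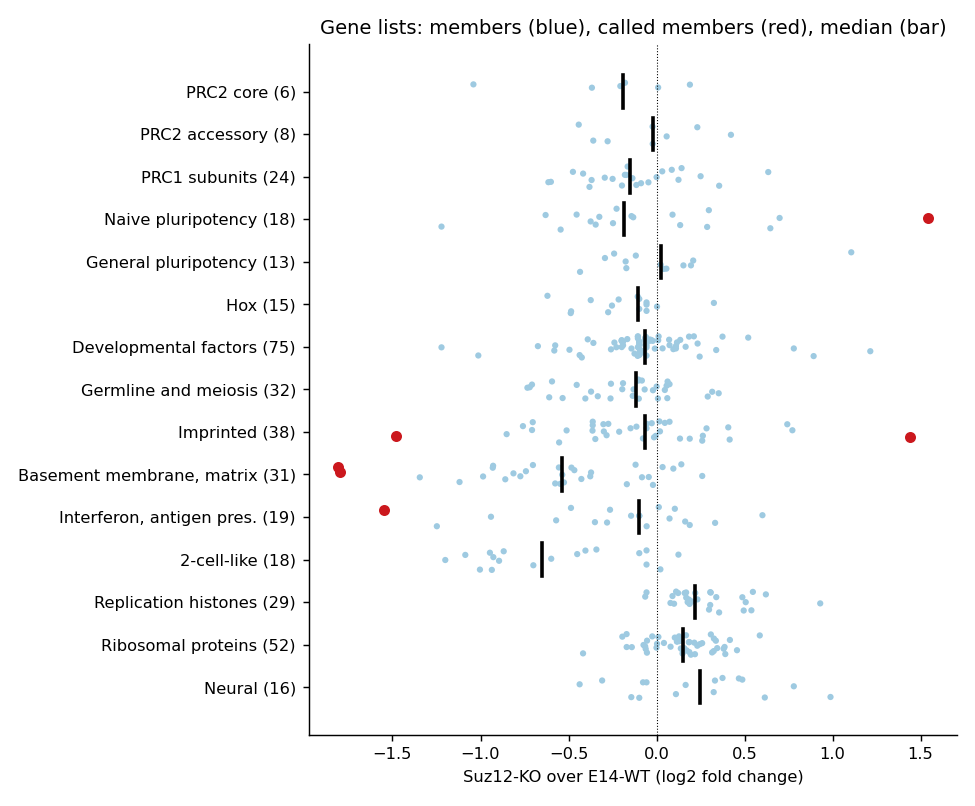
Log2 fold change in Suz12-KO over E14-WT (x axis) of the members with a value of 15 gene lists (rows, number of members in brackets). Blue points are uncalled members, red points called members, and black bars medians, which are lowest for the 2-cell-like list (-0.65) and the basement membrane and matrix list (-0.54) and highest for the neural (0.24) and replication histone (0.22) lists.

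Signalling targets split within lists. The 15 MEK-ERK targets with a value had 1 call in the authors' deposited table, the increase of Ccnd1, and a median of -0.06. Over all genes the share called was 0.200%, and it stands beside each count of calls here. The feedback phosphatase gene Dusp6 stood at 0.98 and the feedback inhibitor gene Spry2 at -1.02. Beta-catenin targets had the same 1 call among 15, with Cdx1 at -1.31 and Lef1 at -0.67. Cdx1 stood at -1.29 in Ezh2-WT. The Nodal list had 1 call among 17, the increase of Lefty2, and Smad3, a mediator of the pathway, stood at -0.79. The growth suppressor Rbl2 stood at -0.89, Ccne1 at 0.69 and Cdkn2a, a locus known to be silenced by Polycomb in other cells, at 0.18. The cell cycle list had 1 call among 15, the increase of Ccnd1. Among 20 p53 targets 0 were called, and Perp stood at 1.01.

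Other lists were checked for stress and for the state of the cultures. In the 2-cell-like list Tcstv1 stood at -1.20 and Zscan4f at -0.95 in the authors' deposited table. The median of the list was -0.72 in Ezh2-WT against the same E14-WT libraries, and most of its members have near-identical copies. Replication histones had 0 calls among 29 and a median of 0.22, and ribosomal proteins 0 among 52 and 0.15. Heat shock genes (0 of 14 called), the unfolded protein response (0 of 18), cholesterol synthesis (0 of 20) and glycolysis and hypoxia (0 of 22) had medians of 0.07, 0.07, 0.12 and -0.11. The cytoskeletal and mesenchymal list had 1 increase among 30, Vim, and a median of -0.06, with the membrane-binding annexin gene Anxa5 at -1.39. The haematopoietic list had 1 increase, Lck, among 20, the glycosyltransferase list 1, B3gnt3, among 14, and the melanocyte and retina list 1 decrease, Trpm1, among 7. Their medians were -0.06, 0.07 and -0.38, and -0.21, 0.25 and -0.64 over unshared values. The lists were chosen with earlier results of these data known, so a called gene within them is no support for a theme. Over all genes 0.200% were called.

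Several uncalled genes were as far from 0 as called ones. The lowest in the authors' deposited table, gene models aside, were Megf11 at -1.45, Elobl at -1.43, Ankrd44 at -1.41 and Anxa5 at -1.39. Frem2, the membrane protein gene Emp2 and Serpina3m, a protease inhibitor gene, all stood at -1.34. The receptor phosphatase gene Ptprj, the transcriptional co-activator gene Zmiz1, Ap3b2, Gas7 and Rpia, an enzyme gene of the pentose phosphate pathway, lay between -1.33 and -1.31. The highest were the zinc finger gene Zfp521 at 1.40, Nfkbil1 at 1.37, Otx2 at 1.21, Gng3 at 1.20, and Flywch1 and Tmcc2 at 1.17. Rbm47 and Mapk4 stood at 1.13, Utf1 at 1.11, Fetub at 1.10 and Ddah1 and Rab26os at 1.09 and 1.08. Of these 24 genes Megf11, Anxa5 and Frem2 were also at -1 or below in Ezh2-KO, at -1.03, -1.13 and -1.39, as were 0.448% of all genes there.

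Genes without a read in E14-WT had small fitted values. None of the 1064 was called in the authors' deposited table, and their median was 0.10. The largest values were those of the endoderm factor gene Sox7 at 0.84, the zinc finger genes Rslcan18 at 0.68 and Zcchc18 at 0.60, the non-coding Gm26654 at 0.53 and Lgals7 at 0.50. These are the authors' fitted values against a group with no reads and are no lower bound.

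Called genes were set beside Ezh2-KO over Ezh2-WT, which shares no library with this comparison. Of the 16 increases 16 had the same sign there, with a median of 0.82, and of the 21 decreases 17 did, with a median of -0.26, in the authors' deposited table. The difference between both sets was not tested. Over all 16426 genes with both values 58.9% had the same sign. That share grew with size. It was 54.5% of genes within 0.25 of 0 in Suz12-KO, 65.3% of those between -0.5 and -0.25, 76.3% between -1 and -0.5 and 82.4% of the 108 at -1 or below. On the other side it was 62.0% between 0.25 and 0.5, 71.6% between 0.5 and 1 and 38 of the 40 at 1 or above. The median in Ezh2-KO was -0.32 for the 108 genes and 0.55 for the 40. These are counts across genes, which are not independent replicates, and no p is given. The decreases Reep1 at 0.50, Phf11d and Dusp27 at 0.18 and Acan at 0.07 stood on the other side in Ezh2-KO. In Ezh2-WT over the same E14-WT libraries all decreases but 2210409E12Rik, Lamb1 and Trpm1 also lay below 0. Plce1, Ttn and Man2a1 stood there at -0.94, -0.81 and -0.79, beside -0.0026, -0.27 and -0.26 in Ezh2-KO. The increases Guk1, Ccnd1, Sox13, Lefty2, Vim and Mir5099 lay below 0 in Ezh2-WT and the others above. The source of these shared signs was not tested.

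**Figure D5:**
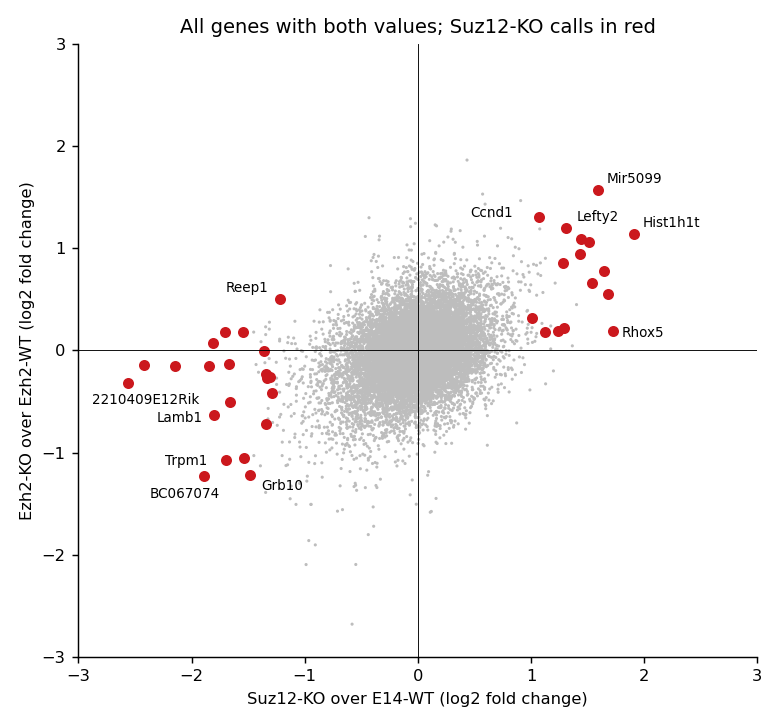
Log2 fold change of 16426 genes in Suz12-KO over E14-WT (x axis) and Ezh2-KO over Ezh2-WT (y axis), grey, with the 37 genes called in Suz12-KO in red. All 16 increases lie in the upper right, and 17 of 21 decreases in the lower left.

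No chromosome was shifted as a whole. Medians of the 19 autosomes lay between -0.06 and -0.01 in the authors' deposited table, and the 771 genes of chromosome X had one of -0.03. Chromosome X held 3 of the 16 increases, Rhox5, Gpc3 and Klhl13, and 0 decreases, among genes that make up 771 of the 18498. Chromosome 11, which carries Suz12, held 1 increase and 3 decreases among 1582 genes, with a median of -0.02.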

How the data were processed

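RNA-seq was done on rRNA-depleted RNA of mouse embryonic stem cells, with 3 biological replicates per group. The deposited table holds log2 fold changes and calls made by the authors. TopHat, featureCounts and DESeq2 and the builds GRCm38 and mm10 are named in the submitters' processing notes, and Ensembl 72 genes were used per the file headers. No source used here gives the criteria of the call. From the table only the sign was turned and counts, medians and ranges were computed, with Python 3.11.15 and pandas 2.3.3. Each gene's depth is unknown. A missing value was read as no reads in either group.

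Symbols and positions came from GENCODE M21, which left 1753 identifiers without a match. Promoters came from RefSeq, within 1000 bases of the annotated start, and 24 of 37 called genes had one. Near-identical copies were found with blastn 2.17.0 (at least 95% identity over 100 bases and 50% of the shorter transcript).

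The lists and the genes named were chosen with earlier results of these data known. Named were all called genes, PRC2 subunits, fixed markers, 12 uncalled genes each way and up to 4 of the largest of each list, of which 1 gene is not reported here. Nodal, Rhox13, Cdkn2a, Col4a2, Lama5, Tap1, H2-D1, Tap2, Tapbp, H2-T23 and Psmb9 were chosen after their values were seen. Alternatives were thresholds, means, and genes with reads in E14-WT or with unshared values. The rule for the sign was run on simulated data. There a missing value meant no reads in either group by design, so that reading of missing values was not itself tested.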

Additional observations from a re-analysis of the deposited data

How the results depend on the processing

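No paired analysis was possible because the deposited table holds 1 value per gene and comparison and none per library; for the same reason no replicate could be left out. Counts depended on the rule: the authors called 16 increases and 21 decreases, a size of 1 alone gave 40 and 112, and a size of 1.5 gave 7 and 13. With the sign as deposited the calls would read 21 increases and 16 decreases. Medians moved by over 0.1 in these cases. Means in place of medians gave -0.053 for naive pluripotency, 0.068 for MEK-ERK targets, 0.27 for the histone-methylation imprints, 0.27 for Rhox, 0.82 for testis histones and -0.24 for interferon and antigen presentation. Genes with unshared values alone gave medians of -0.82 for endoderm, 0.38 for mesoderm, 0.42 for neural, -0.28 for Hox, 0.33 for Rhox, -0.23 for germline, -0.93 for 2-cell-like, -0.27 for interferon, -0.51 for feeder, -0.21 for haematopoietic, -0.64 for melanocyte and 0.25 for glycosyltransferase genes. Genes with reads in E14-WT alone moved the melanocyte list to -0.51. The causes were not tested. Promoters within 100 bases of the start, an alternative chosen after seeing the data, gave median CpG ratios of 0.46 for increases and 0.317 for decreases, beside 0.510 and 0.39. The wider promoter window was not run.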

Other observations

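Genes that lay close together sometimes shared a direction. Among the 152 genes with an absolute value of at least 1 in the authors' deposited table, 5 pairs lay within 100 kb of each other, and all 5 had the same sign. As 112 of the 152 stood at -1 or below, pairs often share a sign wherever they lie. The share over other pairs was not computed. Gpa33 and Dusp27, both called lower, lie 32.1 kb apart between their lower coordinates and stood at -1.85 and -1.71. In Ezh2-WT over E14-WT they stood at -0.22 and -1.64, and in Ring1A+B-DKO at -0.08 and -1.82. B3gnt3 at 1.51 and Jak3 at 1.05, a kinase of cytokine receptors, lie 14.5 kb apart. The other pairs were Tmem92 with Gm11545, Tcstv1 with B020031M17Rik, and 2210409E12Rik with its copy Elobl.

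Transcripts of chromosome Y were present in both lines. The 9 genes with a value had a median of -0.06 in Suz12-KO over E14-WT. In Ezh2-WT over the same E14-WT libraries the median was -1.15. Kdm5d, a histone demethylase gene, stood at 0.05 in Suz12-KO and Uty, a relative of the H3 lysine demethylase Kdm6a, at 0.12.

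By annotation class, rRNA genes had a median of 0.20 (116 genes), snoRNA genes 0.08 (309), snRNA genes 0.07 (303) and long intergenic RNA genes -0.06 (480). The 14272 protein-coding genes had a median of -0.04 and held 31 of the 37 calls. The snRNA and long intergenic medians equal 0.0736 and -0.0571, which 433 and 718 genes share, so they say little about these classes. The RNA was rRNA-depleted and small RNA was removed, so values of rRNA, snoRNA and snRNA genes are uncertain.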
